A study of Gallus gallus with 12 samples.

Results

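Scale-forming skin of the chicken foot at embryonic day 11 (E11) was compared with feather-forming skin of the wing at day 9 (E9), using 4 of the 12 RNA sequencing libraries of a survey of embryonic skin. The scale skin came from the tarsometatarsus, the part of the leg above the toes, at Hamburger-Hamilton stage 37, and the wing skin came from stage 35 embryos. All embryos were untreated White Leghorn chickens from fertilized eggs, and each group had 2 libraries. The sample titles call the material dermis while the tissue labels call it skin, and keratinocyte transcripts were present in all 4 libraries, so it is called skin here. Keratinocyte markers summed to 611 to 865 CPM in these libraries, against 17604 to 40105 CPM for dermal fibroblast markers. How much epidermis the samples held was not tested. The other 8 libraries came from scale skin E9, thigh skin E9 and dorsal skin of both E7 and E9, and they entered the fit that estimated the spread between libraries. Scale skin E11 and wing skin E9 differ at once in limb, in position along the limb, in the appendage that will form and in age, and these cannot be told apart within the comparison. The scale skin E9 libraries are therefore set beside it, as tarsometatarsal skin of the same age as the wing skin. The labels do not state whether the replicates of a group were separate embryos or pools, and p-values measure the spread between these libraries alone, which may be technical.

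Feathers and scales both arise from embryonic skin in which dermal cells instruct the overlying epidermis through WNT, FGF, BMP and hedgehog signals. Feather buds begin as an epidermal placode over a dense dermal condensation, while the scutate scales on the front of the foot form later, as overlapping ridges. Dermal cells of the limbs also carry a record of position: TBX5 marks the forelimb, TBX4 and PITX1 mark the hindlimb, and HOX genes of the later paralog groups mark position along the limb and trunk.

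Values were deposited as CPM, read counts scaled to the size of the library, and a log2 fold change here is a difference in log2(CPM + 1), which understates the change of genes with few reads. The 4 libraries held 16828144 to 20641990 reads. A gene with 0 reads in a library could have up to 3, which is worth 0.143 to 0.179 CPM and covers counting error only. Of 12277 genes tested with limma, 1774 (14.4%) differed between scale skin E11 and wing skin E9 at a Benjamini-Hochberg adjusted p under 0.05. Of these, 1128 (9.19% of all tested) were higher in scale skin and 646 (5.26%) were lower, so that 63.6% of calls were higher. After quantile normalization the split was 1018 higher and 909 lower, which is 52.8% higher. At least 2-fold changes were called for 587 genes (4.78%) that were higher and for 252 (2.05%) that were lower. The median log2 fold change over all genes tested was 0.03. All 1774 called genes had both libraries of one group above both of the other, as did 8012 genes (65.3%) in all.

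The count depended on the libraries that set the spread. It was 3378 when both thigh libraries, whose replicates were the least alike of the 6 groups, were left out. It was 589 without wing replicate 1, 897 without wing replicate 2, 824 without scale E11 replicate 1 and 843 without scale E11 replicate 2. At the same age, scale skin E9 against wing skin E9, 1092 genes (8.89%) were called, 585 (4.77%) higher and 507 (4.13%) lower. Between the ages, scale skin E11 against scale skin E9, 716 genes (5.83%) were called, 537 (4.37%) higher and 179 (1.46%) lower, which is 75.0% higher, against 64.5% after quantile normalization. These 3 comparisons share libraries and come from the same fit, so their values are not independent. For each gene, the log2 fold change of scale skin E11 against wing skin E9 is the sum of the same-age and between-age values.

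**Figure D1:**
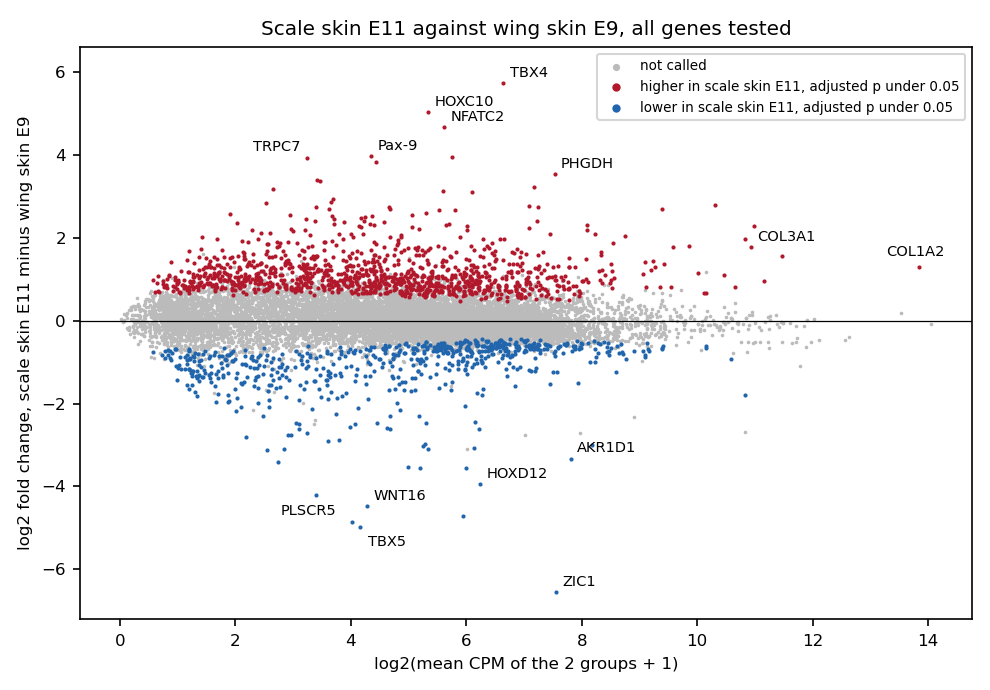
Each point is 1 of the 12277 genes tested. The horizontal axis is log2 of the mean CPM of scale skin E11 and wing skin E9 plus 1, and the vertical axis is the log2 fold change, scale skin E11 minus wing skin E9. Red and blue points are the 1128 higher and 646 lower genes at an adjusted p under 0.05 (limma). TBX4 lies highest and ZIC1 lowest.

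The limb identity genes separated the groups by far more than the replicates differed. TBX4, the hindlimb T-box factor, was at 209 and 181 CPM in scale skin E11, against 2.57 and 2.85 CPM in wing skin E9. Its log2 fold change was 5.72 ± 0.26 (SE), the largest increase of the comparison, with an adjusted p of 2.48e-08 in limma. TBX5, the forelimb T-box factor, was at 0.05 and 0.11 CPM in scale skin E11, which is 1 and 2 reads, against 28.0 and 39.1 CPM in wing skin E9. The fitted log2 fold change of TBX5 was -4.98 ± 0.22 (adjusted p 2.48e-08, limma), and the ratio of CPM, wing over scale, was 419, with an exact 95% counting interval of 143 to 2030. PITX1, a homeodomain factor that acts above TBX4 in the hindlimb, was at 4.11 and 6.80 CPM in scale skin E11 and at 0.12 and 0.00 CPM in wing skin E9. That is 201 reads against 2, a ratio of 103 with a counting interval of 28.2 to 858, and the fitted log2 fold change was 2.58 ± 0.23 (adjusted p 1.46e-05, limma). In scale skin E9, TBX4 was at 186 and 149 CPM and PITX1 at 11.98 and 13.95 CPM. PITX1 fell with age within scale skin, by 1.14 on the log2 scale (adjusted p 0.0103, limma), while TBX4 did not pass that test (0.22, adjusted p 0.751).

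The posterior HOX genes differed by cluster. Of 10 measured, 3 were higher in scale skin E11 and 5 were lower, beside 9.19% higher and 5.26% lower over all genes tested. Their median log2 fold change was -0.57 against 0.03 over all genes. HOXC10 was at 64.8 and 90.7 CPM in scale skin E11, against 1.49 and 1.28 CPM in wing skin E9, a log2 fold change of 5.03 ± 0.22 (adjusted p 2.48e-08, limma). HOXC11 was at 23.3 and 35.9 CPM in scale skin E11, against 5.14 and 3.71 CPM in wing skin E9 (2.48 ± 0.27, adjusted p 6.06e-05, limma). HOXB9, at 3.39 and 2.92 CPM against 0.36 and 0.57 CPM in wing skin E9, was the other gene that rose (1.51). The 2 genes without a call were both of the HOXC cluster, HOXC9 (0.31, adjusted p 0.501) and HOXC12 (0.13, adjusted p 0.930), and the groups overlapped in both.

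All 5 measured posterior HOXD genes, HOXD9 to HOXD13, were lower in scale skin E11. HOXD12 was at 11.3 and 5.78 CPM in scale skin E11, against 149 and 132 CPM in wing skin E9, a log2 fold change of -3.95 ± 0.32 (adjusted p 5.55e-06, limma). HOXD11 was at 7.83 and 7.02 CPM in scale skin E11 and at 73.3 and 69.3 CPM in wing skin E9 (-3.10). The fitted changes of HOXD10, HOXD13 and HOXD9 were -2.49, -2.12 and -1.27. Scale skin E9 gave the same calls against wing skin E9 for all 8 of these HOX genes, and none of the 10 posterior HOX genes changed between scale skin E11 and scale skin E9. HOXD11, HOXD12 and HOXD13, which pattern the outer limb segments, were at averages of 7.42, 8.55 and 5.61 CPM in scale skin E11. In dorsal skin E9 HOXD11 averaged 0.53 CPM and HOXD12 0.03 CPM, so that scale skin lay between wing and dorsal skin for these genes. Of the 10 measured HOX genes of earlier paralog groups 3 rose, beside 9.19% of all genes tested. All were of the HOXB cluster, Hoxb-7 (1.22), HOXB6 (1.07) and HOXB3 (1.02). The HOXB calls were lost without scale E11 replicate 2 (adjusted p 0.0547 to 0.107) and without wing replicate 1 (0.0605 to 0.147), and that of HOXB3 also without scale E11 replicate 1 (0.111) and wing replicate 2 (0.0996).

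**Figure D2:**
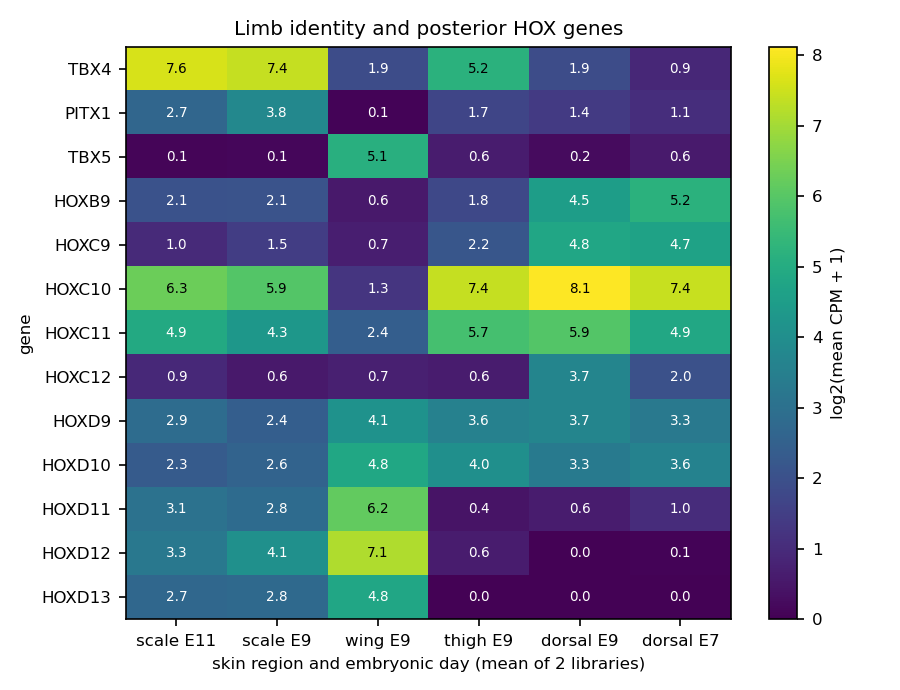
Rows are the limb identity and posterior HOX genes, columns are the 6 groups of skin, and each cell gives log2(mean CPM + 1) over 2 libraries. Cells are to be compared within a row, since CPM is not corrected for transcript length. TBX4, HOXC10 and HOXC11 stand higher in both scale groups than in wing skin, and TBX5 and HOXD9 to HOXD13 stand lower.

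Other transcription factors that carry position in limb and skin went both ways. Of 58 measured, 12 were higher in scale skin E11 and 17 were lower, a median of -0.03. The shares over all genes tested were 9.19% higher and 5.26% lower. ZIC1, a zinc finger factor that the study names among its candidate regulators, was at 3.39 and 2.59 CPM in scale skin E11, against 395 and 344 CPM in wing skin E9. Its log2 fold change of -6.54 ± 0.21 was the largest decrease of the comparison (adjusted p 1.88e-09, limma). ZIC1 was lower still in scale skin E9, at 0.62 and 0.64 CPM, and rose with age there by 1.28 on the log2 scale (adjusted p 0.00305, limma). SIM1, a bHLH-PAS factor, was at 4.11 and 4.0 CPM in scale skin E11 and at 63.2 and 52.0 CPM in wing skin E9 (-3.53). MSX2, a homeobox target of BMP signalling, was at 3.83 and 1.24 CPM in scale skin E11, against 24.4 and 21.8 CPM in wing skin E9 (-2.87).

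Pax-9, a paired box factor of limb and pharyngeal mesenchyme, led the factors that rose. It was at 40.9 and 33.6 CPM in scale skin E11, against 1.14 and 1.76 CPM in wing skin E9, a log2 fold change of 3.97 ± 0.22 (adjusted p 2.39e-07, limma). The other factors that rose were Alx-4 (2.17), ALX1 (1.88), TRPS1 (1.65), SHOX (1.43), PRDM12 (1.09), PRDM6 (1.06), FOXD1 (1.06), PAX1 (1.02), irx2 (0.97), PRRX2 (0.79) and OSR2 (0.77). SHOX and SHOX2, paralogs that act in limb segments, went opposite ways, with SHOX2 at 1.20 and 1.78 CPM in scale skin E11 against 17.8 and 13.0 CPM in wing skin E9 (-2.72). PRRX2 and PRRX1, paired-related factors of limb mesenchyme, did the same (0.79 and -0.78). The remaining factors that fell included SIM2 (-2.50), IRX4 (-1.83) and EMX2 (-1.65), with the others between -1.27 and -0.68. Without 1 of the 4 libraries, 5 to 7 members of this list were called higher and 9 to 12 lower.

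Of the 14 named genes with the largest increase, 10 were also higher in scale skin E9 than in wing skin E9, and 8 rose between scale skin E9 and scale skin E11. Over all genes tested 4.77% and 4.37% did so. The 14 were chosen on libraries that these tests reuse in part, so part of each count was built in by the choice. NFATC2, a calcium-regulated transcription factor, was at 82.9 and 103 CPM in scale skin E11, against 1.85 and 3.80 CPM in wing skin E9 (4.66 ± 0.29, adjusted p 8.29e-07, limma). It was already at 56.6 and 35.5 CPM in scale skin E9. IGSF10, a secreted immunoglobulin-domain protein, was at 132 and 112 CPM in scale skin E11 and at 13.9 and 12.7 CPM in wing skin E9 (3.11), with 120 and 106 CPM in scale skin E9. FAM46A, a noncanonical poly(A) polymerase, was at 213 and 308 CPM in scale skin E11 and at 25.0 and 27.8 CPM in wing skin E9 (3.23). Like TBX4, HOXC10 and Pax-9, these 3 genes did not pass the test between the ages of scale skin (adjusted p 0.0609 to 0.867).

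A second set of the largest increases was seen at E11. TRPC7, a cation channel, was at 15.7 and 17.8 CPM in scale skin E11, against 0.18 and 0.14 CPM in wing skin E9 (3.93 ± 0.29, adjusted p 2.92e-06, limma), with 1.04 and 1.23 CPM in scale skin E9. PHGDH, the first enzyme of serine synthesis, was at 391 and 289 CPM in scale skin E11, against 29.0 and 27.1 CPM in wing skin E9 (3.54 ± 0.26, adjusted p 2.92e-06, limma), with 61.4 and 33.9 CPM in scale skin E9. SS1R, listed in RefSeq as a synonym of the somatostatin receptor SSTR1, was at 19.2 and 17.8 CPM in scale skin E11 and at 0.78 and 0.95 CPM in wing skin E9 (3.39). None of these 3 passed the test at the same age, where the fitted values were 0.88, 0.68 and -0.21, and all rose within scale skin, by 3.05, 2.85 and 3.60. Since these values add up to the changes against wing skin E9, a small same-age value goes with a large rise here. ANO2, a calcium-activated chloride channel, followed the same course with unequal replicates, 8.76 and 29.9 CPM in scale skin E11 and 0.42 and 1.0 CPM in wing skin E9 (3.37 ± 0.40). COL19A1, ADAMTS18, ITIH5 and CHAC1 passed both tests. COL19A1, a fibril-associated collagen, was at 37.0 and 41.6 CPM in scale skin E11, at 8.52 and 3.97 CPM in scale skin E9 and at 1.37 and 2.38 CPM in wing skin E9 (3.83). ADAMTS18, a secreted protease, was at 78.2 and 122 CPM in scale skin E11 and at 2.99 and 9.26 CPM in wing skin E9 (3.95). ITIH5, a hyaluronan-binding protein, and CHAC1, a glutathione-degrading enzyme, rose by 2.94 and 2.86.

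All 14 named genes with the largest decrease were also lower in scale skin E9 than in wing skin E9. Over all genes tested that share was 4.13%. The 14 were chosen for their decrease against the same wing libraries, so part of this overlap was built in by the choice. PLSCR5, of the phospholipid scramblase family, had 0 and 3 reads in scale skin E11 and was at 27.6 and 32.9 CPM in wing skin E9. The ratio, wing over scale, was 374, with a counting interval of 128 to 1820, and the fitted log2 fold change was -4.85 ± 0.21. WNT16, a WNT ligand, was at 0.49 and 0.86 CPM in scale skin E11, against 40.2 and 32.4 CPM in wing skin E9 (-4.48 ± 0.40, adjusted p 1.46e-05, limma). NEXN and SCIN, both actin-binding proteins, fell by 3.56 and 3.07 on the log2 scale. ESR2, an oestrogen receptor, was at 0.60 and 0.38 CPM in scale skin E11 and at 10.2 and 13.5 CPM in wing skin E9 (-3.10). CRHR2, a receptor for corticotropin-releasing peptides, was at 6.95 and 8.75 CPM in scale skin E11 and at 63.4 and 72.6 CPM in wing skin E9 (-2.97). AKR1D1, a steroid reductase, was at 47.2 and 33.3 CPM in scale skin E11, against 427 and 388 CPM in wing skin E9 (-3.33), and also fell between the ages of scale skin, by 1.82 (adjusted p 0.000871, limma). The other gene of this set that changed with age was ZIC1. All 28 named genes with the largest changes kept their call in all 26 alternative settings. They were chosen as the largest called changes in these same data, which favours keeping a call.

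**Figure D3:**
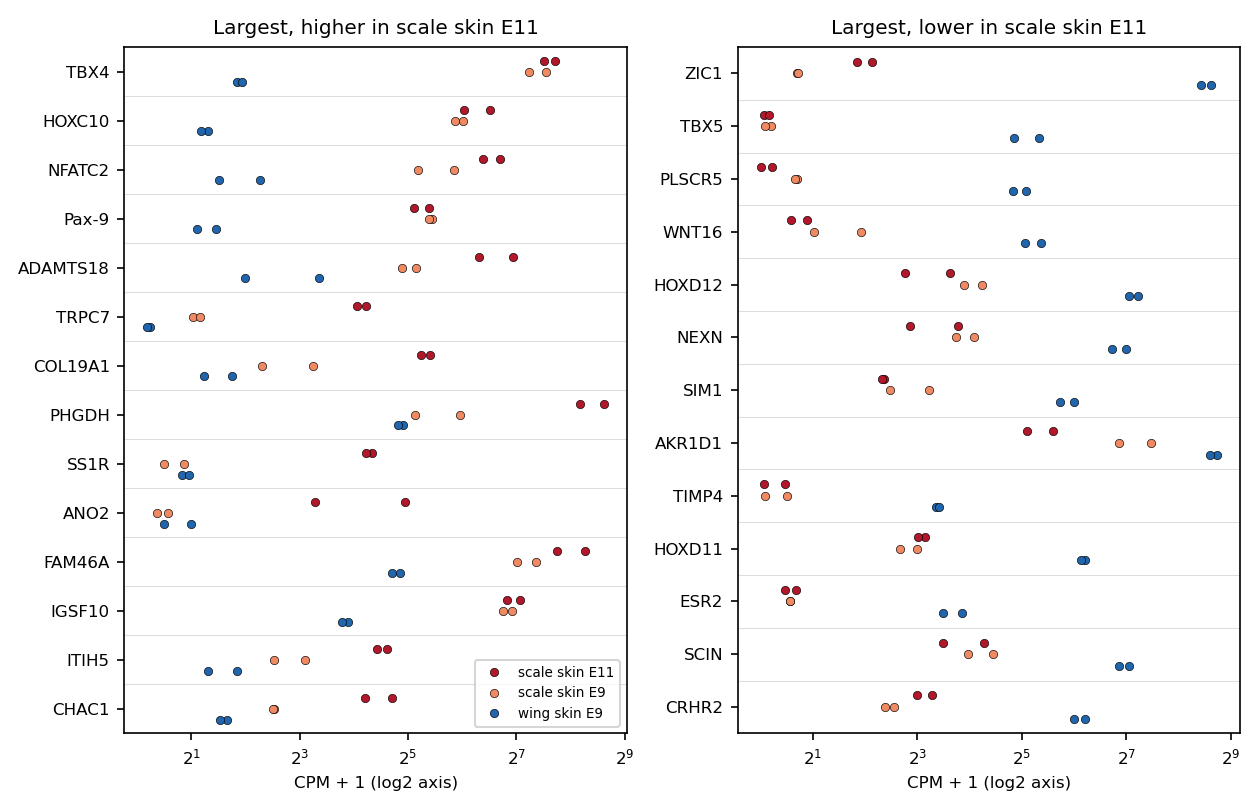
CPM + 1 on a log2 axis for the named genes with the largest increase (left panel, 14 genes) and the largest decrease (right panel, 13 of the 14). Each point is 1 library, with scale skin E11 on the upper line of each row, scale skin E9 on the middle line and wing skin E9 on the lower line. TRPC7, PHGDH, SS1R and ANO2 are high in scale skin E11 alone of these 3 groups, whereas TBX4, HOXC10 and Pax-9 are high in both scale groups.

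Among the study's candidate regulators other than ZIC1, SOX18 was lower and 2 others did not pass the test. SOX18, a factor of vessels and feather dermis, was at 42.7 and 37.7 CPM in scale skin E11, against 82.4 and 87.5 CPM in wing skin E9 (-1.06 ± 0.22, adjusted p 0.00685, limma). Scale skin E9 had 19.1 and 10.3 CPM, a log2 fold change of -2.51 against wing skin E9. The SOX18 call was lost without scale E11 replicate 2 (adjusted p 0.0622) and without wing replicate 2 (0.0507). GRHL1, an epidermal factor, was at 13.1 and 8.75 CPM in scale skin E11 and at 7.35 and 13.0 CPM in wing skin E9 (adjusted p 0.820). SPRY2, a feedback inhibitor of FGF signalling, was at 117 and 109 CPM in scale skin E11 and at 107 and 122 CPM in wing skin E9 (adjusted p 0.942). The groups overlapped for both of these genes.

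Genes of dermal condensation, the aggregation that precedes a feather bud, moved in both directions. Their counts stand beside 9.19% called higher and 5.26% called lower over all genes tested. Of 23 measured, 5 were higher in scale skin E11 and 3 were lower, with a median of 0.19 (3 to 4 higher and 1 to 3 lower without 1 of the 4 libraries). BMP4, a BMP ligand, was at 128 and 113 CPM in scale skin E11, against 31.4 and 41.1 CPM in wing skin E9 (1.72 ± 0.22, adjusted p 0.000235, limma). BMP7, another ligand, was at 88.9 and 74.5 CPM in scale skin E11 and at 166 and 209 CPM in wing skin E9 (-1.18). Lef-1, the nuclear partner of beta-catenin, was at 201 and 227 CPM in scale skin E11, against 390.2 and 389.8 CPM in wing skin E9 (-0.87 ± 0.16, adjusted p 0.00283, limma). NCAM1, a cell adhesion molecule of dense dermis counted as transcript ENSGALT00000040522.2, was at 635 and 833 CPM in scale skin E11 and at 324 and 337 CPM in wing skin E9 (1.14). TRPS1, a GATA-type repressor, was at 59.9 and 111 CPM in scale skin E11, against 22.2 and 28.9 CPM in wing skin E9 (1.65). In scale skin E9 TRPS1 was at 6.58 and 4.44 CPM, so that it was lower there than in wing skin E9 (-2.04, adjusted p 0.00088, limma) and rose with age by 3.68. The calls of BMP7 and TRPS1 were lost without scale E11 replicate 2 (adjusted p 0.0652 and 0.0511), and that of BMP7 also without wing replicate 2 (0.062).

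WNT pathway genes had more calls higher than lower, as did all genes tested (9.19% higher and 5.26% lower). The share called lower in each of the WNT lists lay under that of all genes. Of 31 measured WNT ligands and receptors 6 were higher and 1, WNT16, was lower (median 0.09), and of 22 inhibitors and targets 6 were higher and 1, Lef-1, was lower (median 0.22). Without 1 of the 4 libraries 3 to 5 ligands and receptors and 4 to 5 inhibitors and targets were called higher. WIF1, which binds WNT ligands, was at 247 and 197 CPM in scale skin E11, against 39.6 and 53.0 CPM in wing skin E9 (2.24 ± 0.21, adjusted p 1.86e-05, limma). SFRP4, a secreted frizzled-related antagonist, was at 59.6 and 49.6 CPM in scale skin E11 and at 10.7 and 10.3 CPM in wing skin E9 (2.27). APCDD1, a membrane inhibitor, was at 909 and 840.1 CPM in scale skin E11 and at 290 and 361 CPM in wing skin E9 (1.43). These 3 inhibitors were also higher in scale skin E9 than in wing skin E9, by 2.60, 1.89 and 1.29 on the log2 scale. DKK3, of the dickkopf family, rose by 1.16 and did so within scale skin (1.14, adjusted p 0.00142, limma), with a same-age value of 0.02 (adjusted p 0.967). Among ligands and receptors, WNT2B was at 53.2 and 39.4 CPM in scale skin E11, against 12.7 and 7.98 CPM in wing skin E9 (2.07). LGR6, a receptor for R-spondins, was at 8.16 and 7.50 CPM in scale skin E11 and at 0.60 and 1.62 CPM in wing skin E9 (2.11). WNT9a rose by 1.34, a call lost without scale E11 replicate 1 or 2 or wing replicate 1 (adjusted p 0.0751 to 0.169).

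The BMP and TGF-beta pathway had 13 higher and 4 lower genes of 47 measured, with a median of 0.22, and 8 to 10 higher and 1 to 4 lower without 1 of the 4 libraries. SMAD9, an intracellular BMP effector, was at 40.6 and 45.4 CPM in scale skin E11, against 5.26 and 5.84 CPM in wing skin E9 (2.75 ± 0.19, adjusted p 1.87e-06, limma). CHRDL2, a chordin-like antagonist, was at 3.39 and 4.81 CPM in scale skin E11 and at 0.24 and 0.33 CPM in wing skin E9 (1.98), a call lost without scale E11 replicate 2 (adjusted p 0.0515). MSX2 and BMP7, described above, were among the 4 that fell. The counts of this list stand beside 9.19% called higher and 5.26% called lower over all genes tested.

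Of 30 measured genes of the FGF pathway 6 rose in scale skin E11 and 2 fell, with a median of 0.21, and 3 to 6 were called higher without 1 of the 4 libraries. FGFR3, an FGF receptor, was at 172 and 189 CPM in scale skin E11, against 53.9 and 71.0 CPM in wing skin E9 (1.53 ± 0.26, adjusted p 0.00199, limma). The other genes that rose were FGFRL1 (1.27), bFGF (1.11), FGFR2 (1.10), FGFR4 (1.05) and FGF12 (0.87). Over all genes tested 9.19% were called higher and 5.26% lower, and the share of this list called lower was near the latter. FGF16, a ligand, was at 1.20 and 1.30 CPM in scale skin E11 and at 5.62 and 5.08 CPM in wing skin E9 (-1.50). IL17RD, an inhibitor of FGF receptor signalling, was at 82.3 and 101 CPM in scale skin E11 and at 193 and 213 CPM in wing skin E9 (-1.14 ± 0.18, adjusted p 0.00125, limma). The FGFRL1 call was lost without wing replicate 1 (adjusted p 0.0821).

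The hedgehog, NOTCH, EDA and retinoic acid lists were smaller. Their counts stand beside 9.19% called higher and 5.26% called lower over all genes tested, and the shares of the NOTCH and EDA lists were near these. Of 15 measured hedgehog genes 3 rose and 1 fell (median 0.23), of 20 NOTCH genes 2 rose and 1 fell (median 0.49), and of 8 EDA genes 1 rose (median 0.39). DLL1, a NOTCH ligand, was at 37.3 and 38.8 CPM in scale skin E11, against 90.3 and 82.7 CPM in wing skin E9 (-1.16 ± 0.21, adjusted p 0.00298, limma). The hedgehog calls HHIP (0.90), BOC (0.81) and DISP1 (-0.67), the NOTCH calls HES5 (1.56) and MAML2 (0.82), and the EDA call NFKBIA (0.84) were each lost on leaving out at least 3 of the 4 libraries, with adjusted p up to 0.313. Of 16 retinoic acid genes 5 rose and 1 fell (median 0.34), with 2 called higher without any 1 of the 4 libraries. ALDH6, listed in RefSeq as a synonym of the retinaldehyde dehydrogenase ALDH1A3, was at 471 and 685 CPM in scale skin E11, against 106 and 229 CPM in wing skin E9 (1.86 ± 0.29, adjusted p 0.0011, limma). CRABP-I, a carrier of retinoic acid, was at 1043 and 924 CPM in scale skin E11 and at 332 and 440.1 CPM in wing skin E9 (1.36). STRA6, a retinol transporter, fell by 1.47, a call lost without scale E11 replicate 2 (adjusted p 0.0674).

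Many collagens rose in scale skin E11. Of 32 measured, 19 were higher in scale skin E11, 1 was lower and 12 were not called, with a median of 1.13 against 0.03 over all genes. The share that rose stands beside 9.19% of all genes tested, and 13 to 18 were called higher when 1 of the 4 libraries was left out. The summed level of the list was 41412 and 37292 CPM in scale skin E11 and 15964 and 14944 CPM in wing skin E9. COL3A1, a fibrillar collagen of loose dermis, was at 3108 and 2904 CPM in scale skin E11, against 865 and 900.1 CPM in wing skin E9 (1.77 ± 0.20, adjusted p 7.75e-05, limma). COL6A3, a chain of the beaded collagen VI, was at 2968 and 2829 CPM in scale skin E11 and at 681 and 790 CPM in wing skin E9 (1.98). COL13A1, a transmembrane collagen, was at 25.5 and 35.6 CPM in scale skin E11 and at 4.18 and 5.80 CPM in wing skin E9 (2.39). COL2A1, the main cartilage collagen, was at 1356 and 956 CPM in scale skin E11, against 147 and 206 CPM in wing skin E9 (2.70 ± 0.31, adjusted p 8.77e-05, limma). COL1A2, a chain of the main fibrillar collagen of dermis, was at 22464 and 19471 CPM in scale skin E11 and at 9336 and 7709 CPM in wing skin E9 (1.30). Its call was lost after quantile normalization (0.74, adjusted p 0.18), without any 1 of the 4 libraries (adjusted p 0.0988 to 0.178) and without 1 dorsal E7 library (0.0562 and 0.0573). At the same age 10 collagens were higher and 1 lower in scale skin E9 (median 0.39), and between the ages 7 rose in scale skin (median 0.55).

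Other matrix genes were divided, beside 9.19% called higher and 5.26% called lower over all genes tested. Of 54 glycoproteins and proteoglycans 15 were higher in scale skin E11 and 9 were lower (median 0.29), and of 38 matrix proteases and inhibitors 8 were higher and 2 lower (median 0.32). Without 1 of the 4 libraries 6 to 11 glycoproteins and proteoglycans were called higher and 5 to 8 lower, and 4 to 5 proteases and inhibitors were called higher. THBS2, a secreted thrombospondin, was at 584 and 807 CPM in scale skin E11, against 166.5 and 167.5 CPM in wing skin E9 (2.03 ± 0.18, adjusted p 1.54e-05, limma). It rose with age within scale skin, by 1.77, and had a same-age value of 0.26 (adjusted p 0.466). THBS4, a relative found in tendon, was at 54.8 and 58.4 CPM in scale skin E11 and at 150 and 192 CPM in wing skin E9 (-1.57), so that these thrombospondins moved in opposite directions. OMD, a small leucine-rich proteoglycan, was at 9.74 and 9.12 CPM in scale skin E11, 33.2 and 28.8 CPM in scale skin E9 and 2.63 and 1.47 CPM in wing skin E9 (1.80). VWA1, a basement membrane protein, was at 39.2 and 28.1 CPM in scale skin E11 and at 126 and 111 CPM in wing skin E9 (-1.80). SPON2 rose by 1.69, a call lost without scale E11 replicate 2 (adjusted p 0.051) and without wing replicate 1 (0.0523). MMP27, a matrix metalloproteinase, was at 192 and 280.4 CPM in scale skin E11 and at 27.4 and 40.6 CPM in wing skin E9 (2.76 ± 0.23, adjusted p 8.99e-06, limma). ADAMTS2, which trims procollagen, was at 294 and 354 CPM in scale skin E11 and at 91.6 and 138 CPM in wing skin E9 (1.51). TIMP4, an inhibitor of metalloproteinases, went the other way, with 0.05 and 0.38 CPM in scale skin E11 against 9.26 and 9.60 CPM in wing skin E9 (-3.11).

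Marker lists of connective tissue cell types stand beside the collagens but share genes with them. The fibroblast list holds COL1A2, COL3A1, COL5A1, COL5A2, COL6A1, COL6A2 and COL6A3. The cartilage list holds COL2A1, COL9A1, COL9A2, COL9A3 and COL11A1, the tendon list COL12A1 and COL14A1, and the bone list COL24A1. Other members, such as THBS2, THBS4 and SPARC, are also on the glycoprotein and proteoglycan list. COL1A2, whose call was not stable, is the most abundant fibroblast marker in scale skin E11. The counts and summed levels of these marker lists therefore partly repeat the collagen and other matrix results. In bulk skin, more cells of a type and more RNA per cell cannot be told apart. The shares over all genes tested were 9.19% called higher and 5.26% called lower. Of 22 dermal fibroblast markers 11 were higher and 2 lower (median 0.73), but 4 to 6 were called higher without 1 of the 4 libraries. They had summed levels of 37925 to 40105 CPM in scale skin E11 and 17604 to 19139 CPM in wing skin E9. Of 15 cartilage markers 4 were higher (2 to 3 without 1 of the 4 libraries) and 2 lower (median 0.14), summing to 1438 to 1864 CPM in scale skin E11 and 445 to 490.4 CPM in wing skin E9. COMP, a cartilage and tendon protein, was at 4.98 and 5.72 CPM in scale skin E11 and at 20.3 and 22.3 CPM in wing skin E9 (-1.81). Of 12 tendon markers 4 were higher and 1, THBS4, lower (median 0.43), summing to 7421 to 7512 CPM in scale skin E11 and 3020 to 3444 CPM in wing skin E9. TNMD, the tendon membrane protein tenomodulin, was at 1571 and 1315 CPM in scale skin E11, against 415 and 404 CPM in wing skin E9 (1.81 ± 0.27, adjusted p 0.000727, limma). Of 9 bone markers 3 were higher and 1 lower (median 0.90), summing to 2588 to 2923 CPM in scale skin E11 and 1403 to 1453 CPM in wing skin E9. ALPL, the mineralization phosphatase, rose by 1.47. No member of these 4 lists was at or under 3 reads in all 4 libraries. The part of cartilage, tendon or bone tissue in the matrix results was not tested.

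**Figure D4:**
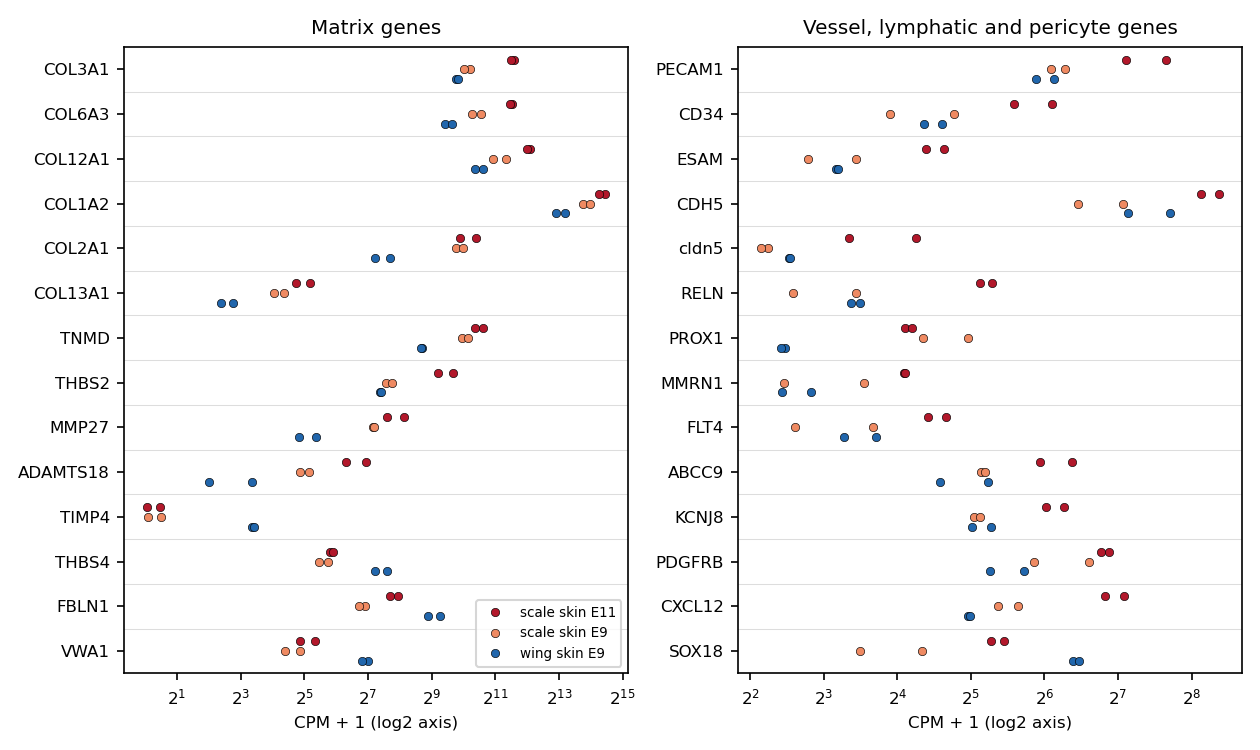
CPM + 1 on a log2 axis for matrix genes (left panel) and for vessel, lymphatic and pericyte genes (right panel). Each point is 1 library, with scale skin E11 on the upper line of each row, scale skin E9 on the middle line and wing skin E9 on the lower line. For PECAM1, CD34 and ESAM, scale skin E11 stands above both E9 groups, whereas for COL2A1 both scale groups stand above wing skin.

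Calls on the blood vessel and lymphatic marker lists were all higher in scale skin E11, beside 9.19% higher and 5.26% lower over all genes tested. SOX18, a factor of vessels described above, is on neither list and was called lower. Of 23 measured endothelial markers 10 were higher in scale skin E11 than in wing skin E9 and 0 lower, with a median of 0.71. Their summed level was 1183 to 1224 CPM in scale skin E11 and 597 to 751 CPM in wing skin E9. At the same age, scale skin E9 had 0 endothelial markers higher and 5 lower (median -0.34), and between the ages 13 of the 23 rose in scale skin (median 1.19). PECAM1, an endothelial adhesion molecule, was at 137 and 200.4 CPM in scale skin E11, against 57.9 and 69.1 CPM in wing skin E9 (1.38 ± 0.27, adjusted p 0.00458, limma). ESAM, a junction protein of endothelium, was at 23.9 and 19.9 CPM in scale skin E11 and at 8.01 and 8.17 CPM in wing skin E9 (1.33 ± 0.25, adjusted p 0.00322, limma). CDH5, the endothelial cadherin, was at 279 and 331 CPM in scale skin E11 and at 139 and 207 CPM in wing skin E9 (0.84), a call lost in 9 of the 26 alternatives (adjusted p 0.0505 to 0.343). The count of endothelial calls depended on single libraries, with 1 to 7 called higher when 1 of the 4 libraries was left out and 12 without both thigh libraries. The call of PECAM1 was lost without scale E11 replicate 2 (adjusted p 0.0639) and without wing replicate 1 (0.0542).

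Of 7 lymphatic markers 4 were higher (2 to 3 without 1 of the 4 libraries) and 0 lower (median 1.04), summing to 140 to 148 CPM in scale skin E11 and 61.1 to 84.1 CPM in wing skin E9. RELN, a secreted glycoprotein made by lymphatic endothelium among other cells, was at 34.0 and 37.9 CPM in scale skin E11, against 9.38 and 10.3 CPM in wing skin E9 (1.77 ± 0.31, adjusted p 0.00219, limma). PROX1, the lymphatic homeobox factor, was at 16.2 and 17.4 CPM in scale skin E11 and at 4.54 and 4.37 CPM in wing skin E9 (1.71). Unlike RELN, PROX1 was higher at the same age too, with 30.2 and 19.4 CPM in scale skin E9 (2.21, adjusted p 0.000247, limma). Of 15 smooth muscle and pericyte markers 4 were higher (2 to 4 without 1 of the 4 libraries) and 1 lower (median 0.47). These counts stand beside 9.19% called higher and 5.26% called lower over all genes tested. ABCC9 and KCNJ8, which form a pericyte potassium channel, rose by 1.25 and 1.001, and both rose with age in scale skin (0.99 and 1.06). MYOCD, a smooth muscle coactivator counted as ENSGALT00000043043.1, was at 0.77 and 1.03 CPM in scale skin E11 and at 2.45 and 4.66 CPM in wing skin E9 (-1.22), a call lost without scale E11 replicate 1 (adjusted p 0.0781) and without wing replicate 2 (0.105).

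Of 37 cytokines and chemokines 9 were higher and 2 lower (median 0.30), beside 9.19% higher and 5.26% lower over all genes tested. CXCL12, a chemokine of stroma and vessels, was at 112 and 134 CPM in scale skin E11, against 30.1 and 30.8 CPM in wing skin E9 (1.98 ± 0.18, adjusted p 1.46e-05, limma). The angiopoietins, ligands of the endothelial TIE receptors, went opposite ways. The gene deposited as angiopoietin-2 was at 92.4 and 163 CPM in scale skin E11 and at 31.0 and 38.0 CPM in wing skin E9 (1.81), while ANG-1, a RefSeq synonym of ANGPT1, fell by 1.33. Of 9 red blood cell markers 1, SCL (0.80), was called higher, and its call was lost after quantile normalization (adjusted p 0.0582), without any 1 of the 4 libraries (0.0581 to 0.312) and without 1 dorsal E7 library (0.0599 and 0.06). HBG2, a beta-type globin whose reads near-identical globin genes could share, was at 369 and 474 CPM in scale skin E11 and at 124 and 428 CPM in wing skin E9, so that the wing replicates themselves differed and the groups overlapped.

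Calls among epidermal markers went both ways. For keratinocyte markers, the shares called were near those over all genes tested, 9.19% higher and 5.26% lower. Of 31 keratinocyte markers 3 were higher and 2 lower (median 0.09), and summed levels overlapped, at 611 to 838 CPM in scale skin E11 and 636 to 865 CPM in wing skin E9. The median of this list was -0.22 without wing replicate 1, 0.66 without wing replicate 2, -0.13 without scale E11 replicate 1 and 0.30 without scale E11 replicate 2, with 1 to 6 called higher. At the same age 6 keratinocyte markers were higher and 1 lower in scale skin E9 (median 0.94), and between the ages 1 fell (median -0.49). PKP2, a desmosomal plakophilin, was at 31.5 and 36.4 CPM in scale skin E11, against 5.44 and 6.79 CPM in wing skin E9 (2.30 ± 0.23, adjusted p 2.85e-05, limma). TFAP2C, an epidermal transcription factor, was at 8.98 and 8.69 CPM in scale skin E11 and at 25.0 and 30.4 CPM in wing skin E9 (-1.54). KRT5, a basal keratin, was at 24.5 and 13.6 CPM in scale skin E11 and at 2.27 and 6.89 CPM in wing skin E9 (1.93), a call lost without scale E11 replicate 1 (adjusted p 0.157) and without wing replicate 1 (0.205). JUP and LAMA3, the keratinocyte markers with the most reads, did not pass the test (adjusted p 0.642 and 0.506). Of 11 differentiation markers KRT6A (1.43) was higher and PPL (-0.68) lower. The KRT6A call was lost without scale E11 replicate 2 (adjusted p 0.123) and without wing replicate 1 (0.191), and that of PPL without any 1 of the 4 libraries (0.0896 to 0.249) or 1 dorsal E7 library (0.0614 and 0.0611). Of 10 Merkel cell and placode markers PIEZO2, a mechanosensitive channel, was higher (0.99) and Lef-1 lower, and the PIEZO2 call was lost without scale E11 replicate 2 (adjusted p 0.0753) and without wing replicate 1 (0.0629).

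The calls among genes of DNA replication and mitosis were all lower in scale skin E11. Over all genes tested 5.26% were called lower, and the median log2 fold change was 0.03. Of 40 replication genes 9 fell and 0 rose, 39 of 40 had a negative fitted value, and the median was -0.48. Of 52 mitosis genes 7 fell and 0 rose, 49 of 52 had a negative value, and the median was -0.42. MCM6, a subunit of the replicative helicase, was at 13.3 and 15.3 CPM in scale skin E11, against 30.4 and 26.1 CPM in wing skin E9 (-0.93 ± 0.20, adjusted p 0.00743, limma). TPX2, a spindle assembly factor, was at 82.6 and 75.7 CPM in scale skin E11 and at 150 and 132 CPM in wing skin E9 (-0.83 ± 0.19, adjusted p 0.0118, limma). PTTG1, the securin of chromosome separation, was at 36.1 and 36.4 CPM in scale skin E11 and at 63.3 and 62.4 CPM in wing skin E9 (-0.78). At the same age 0 genes of either list were called, with medians of -0.20 and -0.04, and between the ages of scale skin 0 were called, with medians of -0.30 and -0.39. Without both thigh libraries 25 replication and 28 mitosis genes were called lower, and without 1 of the 4 libraries 0 to 4 of each list were, with the calls of MCM6, TPX2 and PTTG1 all lost without wing replicate 1 (adjusted p 0.059 to 0.132). The MCM6 call was also lost without scale E11 replicate 1 (adjusted p 0.0627) and that of TPX2 without scale E11 replicate 2 (0.0797).

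Genes of hypoxia and glycolysis had calls in both directions, and the direction of calls among immediate early and stress genes depended on the setting. Over all genes tested, 9.19% were called higher and 5.26% lower. Of 28 genes of hypoxia and glycolysis 3 rose and 3 fell (median 0.01). CA9, a carbonic anhydrase, was at 142 and 103 CPM in scale skin E11, against 51.7 and 47.0 CPM in wing skin E9 (1.28 ± 0.21, adjusted p 0.00131, limma). NDRG1 and P4HA2, a stress-responsive protein and a collagen prolyl hydroxylase, rose by 1.18 and 0.93. The 3 genes that fell were glycolytic enzymes, LDHA (-0.93), PGK1 (-0.78) and PFKP (-0.68), and without any 1 of the 4 libraries 0 of the list were called lower. LDHA was at 292 and 307 CPM in scale skin E11 and at 584 and 558 CPM in wing skin E9, with an adjusted p of 0.132 to 0.211 in those settings. Of 24 immediate early and stress genes ATF3 (1.10) and KLF4 (1.07) were called higher, and both calls were lost without any 1 of the 4 libraries. That share was near the one over all genes. After quantile normalization 1 member of this list was called higher and 2 lower, and with edgeR 4 higher and 4 lower. The summed level of the list was 3476 to 3610 CPM in scale skin E11 and 4799 to 4902 CPM in wing skin E9.

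Adhesion and guidance genes had more calls higher than lower in scale skin E11, as did all genes tested (9.19% higher and 5.26% lower). Of 43 cadherins, integrins and related molecules 10 rose and 2 fell (median 0.41), with 4 to 9 called higher and 0 to 2 lower without 1 of the 4 libraries, and of 50 axon guidance genes 12 rose and 6 fell (median 0.47). CHL1, a neural adhesion molecule, was at 10.5 and 13.2 CPM in scale skin E11, against 1.49 and 2.00 CPM in wing skin E9 (2.22 ± 0.28, adjusted p 0.000206, limma). SEMA3G, a secreted semaphorin made by vessels, was at 97.9 and 90.6 CPM in scale skin E11, 21.7 and 10.3 CPM in scale skin E9 and 21.5 and 23.9 CPM in wing skin E9 (2.01). Among ephrin receptors EPHA3 rose, at 109 and 160.0 CPM in scale skin E11 against 46.8 and 45.7 CPM in wing skin E9, and EPHA7 fell (-1.48). DRAXIN, a repulsive guidance protein, was at 1.97 and 1.62 CPM in scale skin E11 and at 25.8 and 15.1 CPM in wing skin E9 (-2.90 ± 0.30, adjusted p 5.4e-05, limma). In the insulin-like growth factor list 2 of 14 rose and 2 fell, among them IGF2, a growth factor ligand, at 7.83 and 9.07 CPM in scale skin E11, 3.46 and 3.74 CPM in scale skin E9 and 17.3 and 22.0 CPM in wing skin E9 (-1.12). The calls of IGFBP2, IGFBP4 and IGF2BP3 in this list were each lost on leaving out at least 1 of the 4 libraries. Without 1 of the 4 libraries, 5 to 7 guidance genes were called higher and 4 lower, and 24 and 9 without both thigh libraries.

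Markers of the remaining cell types had 0 to 4 calls a list. Over all genes tested 14.4% were called, a share that the small melanocyte, Schwann cell and adipocyte lists exceeded. The macrophage, skeletal muscle and neuron lists lay under it. Of 16 macrophage and leukocyte markers 15 had a positive fitted value (median 0.57), but the call made was for a lower gene, CD3E (-0.73), a T cell receptor component, and it was lost without any 1 of the 4 libraries (adjusted p 0.0719 to 0.229). Of 12 skeletal muscle markers 0 passed the limma test, and their summed level was 58.7 to 63.7 CPM in scale skin E11 and 53.0 to 53.8 CPM in wing skin E9. Of 13 melanocyte markers 1 rose and 3 fell (0 to 1 higher and 0 to 2 lower without 1 of the 4 libraries), led by the pigment cell antigen MLANA at 1.81 and 0.86 CPM in scale skin E11 against 4.42 and 6.56 CPM in wing skin E9 (-1.49), a call lost without scale E11 replicate 2 (adjusted p 0.0714) and without wing replicate 2 (0.0607). ELAVL4, a neuronal RNA-binding protein, was at 2.96 and 3.89 CPM in scale skin E11 and at 12.3 and 13.2 CPM in wing skin E9 (-1.64 ± 0.22, adjusted p 0.000356, limma) and was the 1 called neuronal marker of 17. Of 8 Schwann cell and glial markers 1 rose and 1 fell. Of 7 adipocyte markers 2 rose and 3 had a negative fitted value. Their summed levels overlapped, at 171 to 196 CPM in scale skin E11 and 188 to 204 CPM in wing skin E9. ADIPOQ, the adipocyte hormone adiponectin, was at 5.42 and 8.53 CPM in scale skin E11 against 0.42 and 1.05 CPM in wing skin E9 (2.20 ± 0.31, adjusted p 0.000435, limma). The other call, CIDEC, was lost with edgeR (adjusted p 0.0524), with DESeq2 (adjusted p 0.274) and without any 1 of the 4 libraries. The 3 W-linked genes had summed levels of 207 and 105 CPM in scale skin E11 and 228 and 217 CPM in wing skin E9. The part of the mix of embryo sexes in any result was not tested.

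**Figure D5:**
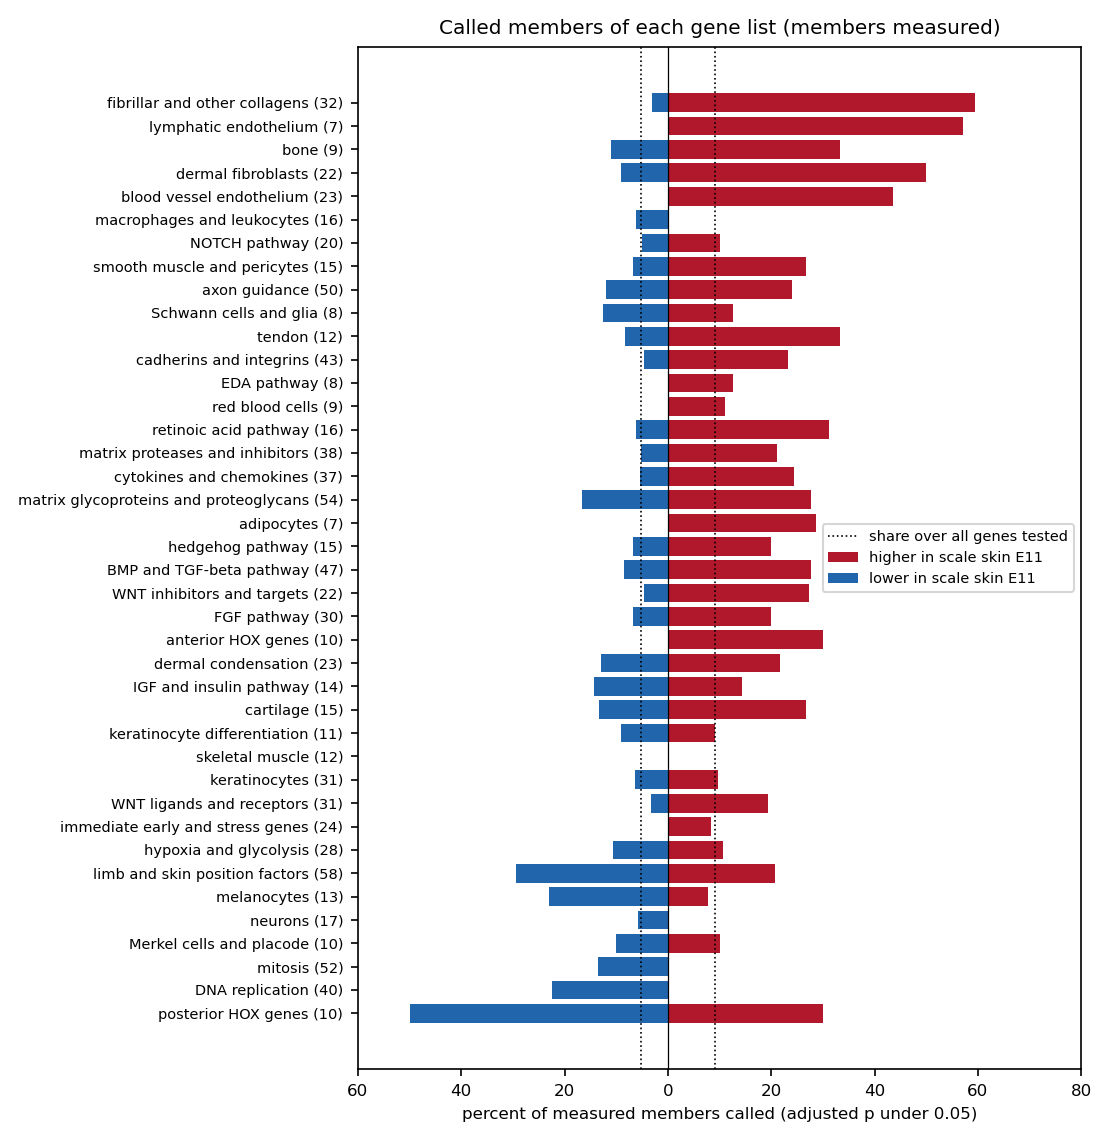
Bars give the percent of measured members of each list of at least 5 genes called higher (red, to the right) or lower (blue, to the left) in scale skin E11 than in wing skin E9 at an adjusted p under 0.05 (limma), ordered by median log2 fold change. Numbers in brackets are members measured, and dotted lines mark the shares over all genes tested, 9.19% higher and 5.26% lower. Collagens, lymphatic endothelium and dermal fibroblasts reach furthest right, and posterior HOX genes furthest left.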

How the data were processed

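Untreated chicken skin was dissected, RNA was taken in Trizol and TruSeq RNA V2 libraries were made, per the labels' protocols. TopHat2, Partek, HTSeq and edgeR and the build galGal4 are named in the submitters' processing notes, with no version, role or order. The authors deposited 1 table of 12297 transcript rows and 12 columns of signal, as CPM on an effective library size. In 11 libraries values up to 100 CPM were whole multiples of 1 read (tolerance 0.0055 CPM, 99.91% to 100.0% of values), so that reads were recovered, and these 11 entered the count tests, while 1 thigh E9 library failed a further check of whole reads and was left out of them. The 12 libraries held 13164611 to 20641990 reads.

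Rows reaching 1 CPM in 2 or more libraries were kept, which removed 20 and left 12277. Values were taken as log2(CPM + 1), and limma 3.58.1 (R 4.3.3) fitted 1 mean per group over all 12 libraries with a mean-variance trend (6 residual and 6.95 prior degrees of freedom). Tests were two-sided, with Benjamini-Hochberg adjustment within each contrast. In simulated data for scale skin E11 against wing skin E9, 200 of 12277 genes, each averaging at least 5 CPM, were changed. Recovered were 43 of 50 changed 2-fold, 50 of 50 changed 4-fold, 40 of 50 changed 0.5-fold and 49 of 50 changed 0.25-fold. There were 10 false calls. Each simulated gene had the same spread in all groups. Real replicates differed by group, with a median absolute log2 difference of 0.124 in wing skin E9 and 0.367 in thigh skin E9. These rates may therefore not hold for the real data. Alternatives, 26 in all, covered pseudocounts, filters, scaling, the libraries in the fit, moderation, a replicate block, edgeR 4.0.16 and DESeq2 1.42.0.

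The 43 gene lists held 1168 genes, of which 863 matched a row, 27 of them by a RefSeq synonym. Named genes were the 14 with the largest change per direction (symbol, adjusted p under 0.05, group means reaching 5 CPM on the higher side, no overlap). All limb identity, study regulator and posterior HOX genes, up to 4 called genes of each other list and the 2 most abundant markers of each cell type were named too. Any further gene printed was picked with its value in view. The genes compared and the lists were chosen with earlier results of these data known. SOX2, a study regulator, was not analysed here. A few genes that met these rules are not reported here. Strand use in counting is not given in the sources used here, so overlapping antisense genes cannot be told apart.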

Additional observations from a re-analysis of the deposited data

How the results depend on the processing

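Over the 26 alternatives, 0 of 4647 fitted values of named genes changed sign where the gene was called in either fit. Sign changes of genes called in neither fit did occur and were not counted. Of the 4647 values, 4388 kept their side of the threshold, 232 lost a call and 27 gained one. Of the 154 named genes that were called, 95 kept the call in every alternative, and the other 59 lost it on leaving out at least 1 of the 4 libraries compared, 44 of them under no other alternative. The count of called genes for scale skin E11 against wing skin E9, 1774, became 3392 with edgeR, 3416 with DESeq2, 3378 without both thigh E9 libraries and 2887 with only the 4 libraries compared, and leaving out 1 library gave 589 to 3382. Both count tools ran on 11 libraries, without 1 thigh library, and limma without that library called 3380. For scale skin E9 against wing skin E9, 1092 became 1743 with edgeR, 1923 with DESeq2 and 1773 without both thigh libraries, and leaving out 1 library gave 500 to 1773. For scale skin E11 against scale skin E9, 716 became 1302, 1521 and 1349 in the same settings, and leaving out 1 library gave 205 to 1347. In the fits without 1 library of a group, the lone library was assumed to vary like the other groups. Pairing by replicate number was not assumed: nothing in the labels ties equal numbers, and differences between replicates correlated at 0.171 between scale skin E11 and wing skin E9 (-0.101 to 0.235 over all pairs of groups). With the replicate block 1957, 1163 and 736 genes were called. The cause of the other moves was not tested. Quantile normalization turned the medians of 5 lists to -0.01 or lower, those of cartilage (-0.01), hypoxia and glycolysis (-0.05), immediate early and stress genes (-0.03), keratinocytes (-0.03) and keratinocyte differentiation (-0.03), the last also with edgeR and DESeq2 (-0.01 in both). Medians that rounded to -0.0 were those of skeletal muscle after quantile normalization, hypoxia and glycolysis with median-of-ratios scaling and keratinocytes with DESeq2. With 2 libraries per group, outlying single libraries could not be tested for, and genes under the limit of 3 reads could not be ranked.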

Other observations

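PHGDH and CHAC1 stood among the largest increases in scale skin E11, and other genes of serine synthesis and of the cellular response to amino acid shortage were then looked at, chosen after those values were seen. Of the 10 genes 8 were higher in scale skin E11 than in wing skin E9, beside 9.19% of all genes tested, but PHGDH and CHAC1, which prompted the choice, are 2 of these 8, so the count is a description only. PSPH, the last enzyme of serine synthesis, was at 10.7 and 9.12 CPM in scale skin E11, against 4.12 and 3.56 CPM in wing skin E9 (log2 fold change 1.17 ± 0.24, adjusted p 0.00664, limma). PSAT1, the middle enzyme, was at 142 and 163 CPM in scale skin E11 and at 99.9 and 113 CPM in wing skin E9, and did not pass the test (0.52, adjusted p 0.0585). In scale skin E9 PSAT1 was at 193 and 215 CPM and PHGDH at 61.4 and 33.9 CPM, and PSAT1 was higher in scale skin E9 than in wing skin E9 (0.94, adjusted p 0.0033, limma), as was CHAC1 (0.92, adjusted p 0.0147). Such PSAT1 levels were not limited to scale skin, with 239 and 220 CPM in thigh skin E9 and 307 and 294 CPM in dorsal skin E7. Dorsal skin E9 was lower, at 56.7 and 77.8 CPM.

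ASNS, asparagine synthetase, was at 82.6 and 98.3 CPM in scale skin E11 and at 43.6 and 46.3 CPM in wing skin E9 (0.99). MTHFD2, a mitochondrial enzyme of folate metabolism, rose by 0.84, SLC1A4, a neutral amino acid transporter, by 1.20, and SESN2, a sensor of leucine and stress, by 1.48. CEBPB, a transcription factor induced by stress, was at 10.2 and 9.29 CPM in scale skin E11, against 2.45 and 2.23 CPM in wing skin E9 (1.69 ± 0.21, adjusted p 0.000216, limma). ATF4, the factor known to drive several of these genes mainly through its translation, was at 814 and 696 CPM in scale skin E11 and at 589 and 557 CPM in wing skin E9 (0.39, adjusted p 0.173). At the same age, scale skin E9 against wing skin E9, the others of the 10 genes did not pass the test (adjusted p 0.144 to 0.819), with fitted values between 0.13 (PSPH) and 0.68 (PHGDH). The 8 added genes were not run under the alternative settings.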
